A study of Homo sapiens with 20 samples.

Results

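MII cells depleted of beta-catenin were compared with MII cells depleted of both beta-catenin and TAZ. The comparison used 8 of the 20 arrays of the series, 4 labelled sibcat/siTAZ against 4 labelled sibcat, and covered all 19775 genes with a probe set that names only that gene. MII (MCF10-T1k) is a human mammary epithelial line transformed by RAS. Cells grew in DMEM/F12 with 5% horse serum, insulin, EGF, hydrocortisone and cholera toxin, and were transfected with siRNA by lipofection with RNAi MAX. The 5 groups received control siRNA (siGFP), siAPC, siAPC with siTAZ, sibcat, or sibcat with siTAZ, with 4 biological replicates (A to D) each. Both groups compared here therefore carried beta-catenin siRNA, and no group received TAZ siRNA alone. No source used here gives the siRNA sequences, their doses or the time to harvest. The labels do not say whether replicates were separate cultures, so a p-value reflects only how these samples varied, which may be technical. Total RNA was measured on Affymetrix arrays, and each value below is a log2 signal normalised by RMA, so that a difference of 1 is a 2-fold change.

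TAZ, the product of WWTR1, is a transcriptional coactivator without a DNA-binding domain of its own. With its paralogue YAP it binds TEAD factors on DNA and switches on genes such as CCN1, CCN2 and ANKRD1, and the LATS kinases of the Hippo pathway restrain it by holding it in the cytoplasm and marking it for degradation. Beta-catenin, the product of CTNNB1, is the coactivator of TCF/LEF factors in Wnt signalling and also links cadherins to actin at adherens junctions. The series asks what TAZ contributes to Wnt responses, and the comparison described here asks what its loss does to cells already depleted of beta-catenin.

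The gene groups described below include genes with known regulatory motifs, and 7 promoters that hold such motifs are shown as examples of the sequences in front of these genes. They were taken from RefSeq on build GRCh38.p14 and run 5′ to 3′ on the strand of the gene, from 250 bases before the start of transcription to 20 bases from it. Capitals in the first 3 mark GGAATG, the core motif bound by TEAD factors, on either strand. CCN2 (chr6:131951353-131951622, minus strand) has 3 matches, which begin 169, 104 and 95 bases before the start. ANKRD1 (chr10:90921068-90921337, minus strand) has 2, at 220 and 128 bases. THBS1 (chr15:39580829-39581098, plus strand) has 1, at 46 bases.
CCN2: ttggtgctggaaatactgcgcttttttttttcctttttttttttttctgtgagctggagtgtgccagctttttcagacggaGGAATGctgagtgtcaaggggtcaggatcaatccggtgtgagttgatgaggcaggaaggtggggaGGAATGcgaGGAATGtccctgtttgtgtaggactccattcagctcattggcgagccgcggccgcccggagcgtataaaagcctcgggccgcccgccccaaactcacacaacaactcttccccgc
ANKRD1: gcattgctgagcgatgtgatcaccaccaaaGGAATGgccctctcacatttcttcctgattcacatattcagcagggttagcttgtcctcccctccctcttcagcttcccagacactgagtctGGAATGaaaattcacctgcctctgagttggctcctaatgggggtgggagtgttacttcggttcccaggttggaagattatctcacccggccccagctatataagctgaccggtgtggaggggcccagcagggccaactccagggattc
THBS1: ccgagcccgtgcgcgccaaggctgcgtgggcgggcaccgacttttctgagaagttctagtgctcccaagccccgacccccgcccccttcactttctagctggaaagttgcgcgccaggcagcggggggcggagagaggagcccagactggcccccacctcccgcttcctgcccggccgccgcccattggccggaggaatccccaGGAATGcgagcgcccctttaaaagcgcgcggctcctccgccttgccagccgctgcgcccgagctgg
Capitals in the next pair mark the interferon-stimulated response element, searched as GAAA, any 2 bases and GAAA, on either strand. IFIT1 (chr10:89392373-89392642, plus strand) has 2 matches, at 116 and 103 bases before the start, and IFI6 (chr1:27672173-27672442, minus strand) has 3, at 156, 115 and 93 bases.
IFIT1: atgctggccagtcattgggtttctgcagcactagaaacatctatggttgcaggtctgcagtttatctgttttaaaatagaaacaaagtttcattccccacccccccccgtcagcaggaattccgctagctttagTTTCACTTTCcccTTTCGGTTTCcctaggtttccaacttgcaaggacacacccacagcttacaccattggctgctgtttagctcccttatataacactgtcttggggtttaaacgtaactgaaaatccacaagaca
IFI6: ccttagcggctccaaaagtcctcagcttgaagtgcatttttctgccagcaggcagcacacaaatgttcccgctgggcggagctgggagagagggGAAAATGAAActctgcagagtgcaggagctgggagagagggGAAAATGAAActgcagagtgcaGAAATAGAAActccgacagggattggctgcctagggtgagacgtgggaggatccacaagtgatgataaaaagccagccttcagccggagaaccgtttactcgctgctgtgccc
The last pair marks ACGTG, the core of the hypoxia response element, in ALDOC (chr17:28576876-28577145, minus strand) and TTTGAA, the cell cycle homology region, in NDC80 (chr18:2571307-2571576, plus strand), each on either strand. The match in NDC80 begins 3 bases before the start. ALDOC has 3 matches, of which those at 240 and 239 bases are the same palindrome read on both strands and the other begins at 28 bases.
ALDOC: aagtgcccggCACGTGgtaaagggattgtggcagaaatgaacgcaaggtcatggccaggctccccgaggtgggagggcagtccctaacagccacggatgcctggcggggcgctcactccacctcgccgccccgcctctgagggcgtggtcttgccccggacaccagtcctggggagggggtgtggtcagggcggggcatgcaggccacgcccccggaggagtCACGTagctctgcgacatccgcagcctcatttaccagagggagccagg
NDC80: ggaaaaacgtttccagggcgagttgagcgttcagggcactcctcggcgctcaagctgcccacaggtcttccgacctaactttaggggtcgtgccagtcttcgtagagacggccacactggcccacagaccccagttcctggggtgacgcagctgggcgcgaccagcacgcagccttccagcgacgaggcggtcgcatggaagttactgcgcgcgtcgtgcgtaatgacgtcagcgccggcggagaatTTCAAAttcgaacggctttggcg
Over 300 bases of 27305 promoters, 250 before the start and 50 from it, GGAATG was found in 14% of all promoters and in 10 of 24 promoters of the YAP/TAZ-TEAD target list (41.7%). The interferon-stimulated response element was found in 3.65% of all promoters and in 15 of 22 of the interferon list (68.2%). ACGTG was in 21.6% of all and in 8 of 18 of the hypoxia and glycolysis list (44.4%), and TTTGAA was in 15.4% of all and in 16 of 25 of the mitosis list (64%). These are counts of letters, not of bound sites, and nothing about a factor follows from a match or from its absence.

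The TAZ message was depleted by the added siRNA. WWTR1 read 10.66, 10.69, 10.56 and 10.58 on the sibcat arrays A to D and 8.33, 8.42, 8.40 and 8.49 on the sibcat/siTAZ arrays. Every sibcat/siTAZ array lay below every sibcat array. The fall of 2.21 on the log2 scale (SE 0.05, adjusted p = 8.9e-17 by limma) left 21.6% of the signal, and all 3 probe sets of WWTR1 fell. The control mean was 11.05, and sibcat alone had already lowered WWTR1 by 0.43. YAP1, the paralogue, fell by 0.36 (adjusted p = 2.7e-06), as did 2 of its 3 probe sets, while the remaining one changed by 0.06 and was not called.

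Beta-catenin message was lower still after TAZ siRNA was added. CTNNB1 read 10.66, 10.66, 10.56 and 10.53 with sibcat and 9.12, 9.27, 9.19 and 9.20 with sibcat/siTAZ, against a control mean of 11.94. The groups did not overlap, and the further fall of 1.41 (SE 0.05, adjusted p = 1.5e-14) left 37.7% of the sibcat signal. A further probe set fell by 0.48 and another rose by 0.21 (adjusted p = 0.0121 over probe sets). In the siAPC background the added TAZ siRNA raised CTNNB1 by 0.28, and the difference between the backgrounds was -1.69 (adjusted p = 1.4e-12). Since CTNNB1 was lower together with WWTR1, and no group had TAZ siRNA alone, the effects of TAZ loss and of the deeper beta-catenin depletion cannot be told apart for any gene below. APC, which no siRNA targeted in these 8 arrays, rose by 0.22 (adjusted p = 0.00308).

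**Figure D1:**
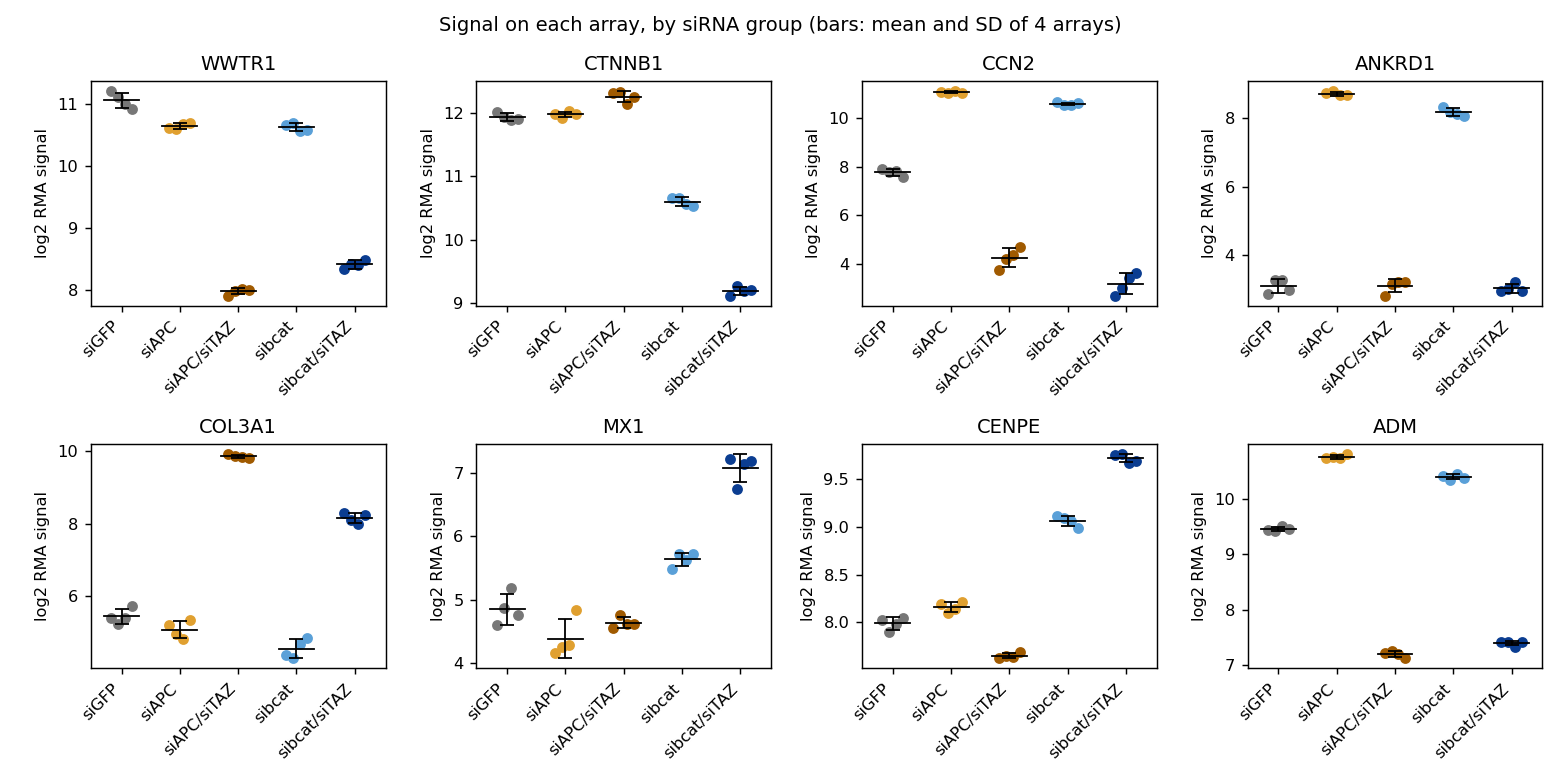
Log2 RMA signal (vertical axes) of 8 genes on each array, by siRNA group; points are arrays, and lines give the mean and SD of 4 arrays. WWTR1 is low in both groups with TAZ siRNA, and CTNNB1 is lower in sibcat/siTAZ than in sibcat. CENPE and MX1 are highest in sibcat/siTAZ.

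Median signals ran from 5.07 to 5.11, which the normalisation fixes. Identical arrays were not found, arrays of the same group correlated at 0.9964 or more, and arrays of different groups at 0.9918 or less. The epithelial markers EPCAM (11.36 to 11.55), KRT18 (12.86 to 12.97) and CDH1 (11.02 to 11.16) had high signals in sibcat cells. High signal does not mean an unchanged profile. All 16 measured genes of the epithelial identity list were called lower in sibcat than in control, at a median of -0.79, beside 15.7% of all genes. RNA quality was read from control probe sets at the 3′ and 5′ ends of ACTB, whose difference was 1.81 in sibcat (1.76 to 1.87) and 2.04 in sibcat/siTAZ (1.98 to 2.12). The exact permutation p of that difference of 0.23 was 0.0286, the smallest that 4 against 4 arrays allow, and 0.0571 after adjustment over ACTB and GAPDH. The same reading for GAPDH was 0.12 and 0.18 (exact permutation p = 0.0571). The part of this shift in the results below was not tested.

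Adding TAZ siRNA changed 6264 of 19775 genes at an adjusted p under 0.05, which is 31.7% of the genes tested. Of these, 3555 were higher (18%) and 2709 lower (13.7%). Counts of list members called higher or lower below are to be read against these shares. Most changes were small. Only 161 genes rose by 2-fold or more (0.814%), while 296 fell that far (1.5%). The 4 arrays of one group did not overlap the 4 of the other in 3054 genes called higher (15.4%) and 2336 called lower (11.8%). The largest falls reached further than the largest rises, as the plot of change against signal shows.

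**Figure D2:**
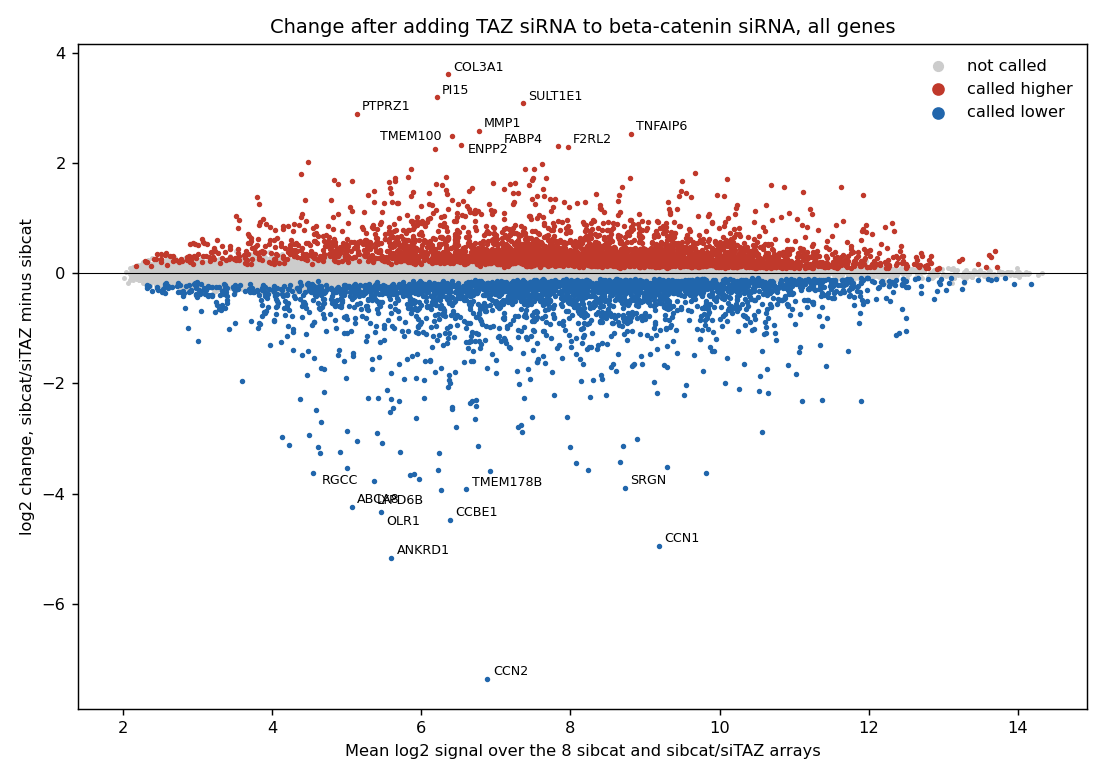
Log2 change of each gene, sibcat/siTAZ minus sibcat (vertical axis), against its mean log2 signal over the 8 arrays (horizontal axis). Red and blue points are genes called higher and lower, grey points were not called, and the 10 largest rises and falls are named. CCN2 lies lowest at -7.35 and COL3A1 highest at 3.61.

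The YAP/TAZ-TEAD target genes fell almost as a group. Of 31 measured members of the list, 28 fell, 1 rose and 2 were not called, and the list's median change was -1.46 against 0.005 for all genes. The 28 compare with the 13.7% of all genes that fell. In 26 of them the groups of arrays did not overlap, beside 2336 of the 2709 genes called lower over the whole table. The 3 members not called lower were RBMS3 (-0.09), PTPN14 (-0.05) and AMOTL1, an angiomotin that binds YAP, which rose by 0.23 (adjusted p = 0.00012). By limma, RBMS3 was called lower with its probe set of largest variance (-0.19, adjusted p = 0.0305) and without sibcat C (-0.15, adjusted p = 0.0272).

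CCN2, the matricellular protein also called CTGF, showed the largest fall of all genes. It read 10.62, 10.52, 10.51 and 10.60 in sibcat and 2.72, 3.04, 3.45 and 3.64 in sibcat/siTAZ. The groups lay far apart, and the sibcat/siTAZ arrays spread more and sat near the bottom of the scale. The difference was -7.35 (SE 0.17, adjusted p = 3.4e-17), a 163-fold reduction in signal. ANKRD1, a nuclear ankyrin-repeat protein of the muscle and stress response, read 8.34, 8.18, 8.13 and 8.06 against 2.92, 3.00, 3.21 and 2.93. It fell by 5.16 (SE 0.10). The control mean was 3.08, and both that and the sibcat/siTAZ signals lay at the bottom of the scale, so these 2 levels cannot be compared. CCN1, the sister protein called CYR61, read 11.65, 11.78, 11.62 and 11.55 against 6.90, 6.64, 6.66 and 6.65. It fell by 4.94 (SE 0.06, adjusted p = 7.7e-21), and its difference from control was then -1.99.

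The other strong TEAD targets span secreted factors, receptors and regulators of the pathway itself. AMOTL2, an angiomotin that retains YAP at junctions, read 11.11, 11.01, 10.92 and 11.17 in sibcat and 7.49, 7.51, 7.57 and 7.55 in sibcat/siTAZ, a fall of 3.52. CRIM1, a transmembrane protein that binds BMPs, fell by 3.42, and each of its 3 probe sets fell. TGFB2, a TGF-beta ligand, fell by 2.88 from 8.84, 8.83, 8.70 and 8.78 to 5.77, 5.97, 5.84 and 6.03. These genes had non-overlapping groups. THBS1, the matrix protein thrombospondin, read 11.93, 12.38, 11.66 and 12.05 against 8.96, 9.24, 9.13 and 9.16 and fell by 2.88 (SE 0.13), with all 7 of its probe sets lower. F3, the tissue factor that starts coagulation, fell by 2.33, IGFBP3, which binds insulin-like growth factors, by 2.32, and DKK1, a secreted Wnt inhibitor, by 2.29. The receptor tyrosine kinase AXL fell by 1.82 and the peptide EDN1 by 1.89. The weakest calls of the list were FJX1 (-0.18) and ARHGEF17 (-0.23), and ARHGEF17 was no longer called when sibcat A, sibcat D or sibcat/siTAZ B was left out (adjusted p = 0.0517, 0.0708 and 0.0601).

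Among the DNA-binding partners and cofactors, TEAD1 fell by 0.56 from between 11.51 and 11.59 to between 10.92 and 11.01. VGLL3, a vestigial-like cofactor that binds TEAD, fell by 0.94, with sibcat arrays at 9.67 or more and sibcat/siTAZ arrays from 8.78 to 8.96. VGLL4, a cofactor that opposes YAP on TEAD, rose by 0.72 from 8.92, 8.81, 8.92 and 8.84 to 9.64, 9.58, 9.55 and 9.62. The groups of arrays did not overlap for any of these 3 genes. VGLL1 fell by 0.35 and VGLL2 by 0.36. TEAD2 rose by 0.23 with overlapping groups (0.08 and not called with the mean of all probe sets), TEAD4 fell by 0.18, and TEAD3 was not called (-0.04). The TEAD4 call was lost in 6 of the fits that left out an array, with adjusted p from 0.0583 to 0.144.

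Hippo pathway components were more often lower than higher, with 14 of 26 lower, 3 higher and a median of -0.22. Several of these also stand in the TEAD target list, AMOTL2, AJUBA (-1.67), LATS2 (-1.48) and WTIP (-0.77) among them. LATS2, a kinase that phosphorylates YAP and TAZ, read 10.40, 10.32, 10.36 and 10.49 in sibcat and 8.98, 8.87, 8.83 and 8.96 in sibcat/siTAZ. FRMD6 fell by 1.34, WWC1 (KIBRA) by 1.03 and NF2 (merlin) by 0.89, and these 3 act upstream of the LATS kinases. STK3, the MST kinase, fell by 0.75. LATS1 was not called (0.08), and the groups of LATS2 did not overlap. MAP4K4 (0.18), AMOTL1 and TAOK1 (0.24) were the 3 that rose.

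Beyond the TEAD list, the 15 largest falls included surface, secreted and transport proteins. CCBE1, a secreted factor needed for lymphatic vessel growth, fell by 4.47 from 8.67, 8.60, 8.61 and 8.63 to 4.34, 4.29, 3.98 and 4.00. OLR1, a scavenger receptor for oxidised LDL, fell by 4.33 from 7.79, 7.60, 7.55 and 7.55 to 3.31, 3.20, 3.59 and 3.08. SRGN, the proteoglycan serglycin, fell by 3.89 from 10.78, 10.76, 10.51 and 10.64 to 6.58, 6.79, 6.88 and 6.88. Genes entered the 15 largest falls only if their groups did not overlap, so the separation of the arrays here follows from that choice. PLAC8 stayed well above the low end of the scale, falling by 3.62 (SE 0.04, adjusted p = 1.5e-21) from 11.64, 11.58, 11.62 and 11.66 to 8.05, 8.02, 7.93 and 8.02, a 12.3-fold reduction.

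The remaining members of this set were the transporters ABCA8 (-4.23) and SLC4A4 (-3.62), the LY6-family proteins LYPD6B (-3.92) and LYPD6 (-3.65), TMEM178B (-3.92), RGCC, a regulator of the cell cycle (-3.77), and PSG4 (-3.73) and PSG9 (-3.67). PSG4 and PSG9 belong to a family of near-identical pregnancy-specific glycoproteins whose probes may read several members. In 12 of the 15 largest falls the sibcat/siTAZ mean lay below 5. Signals that low hold background as well as message, so these folds may understate the change. RGCC differed from most of the set in its starting level, since sibcat read 7.29, 7.30, 7.23 and 7.17 beside a control mean of 7.07, and it then fell to between 3.36 and 3.60.

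COL3A1, the fibrillar collagen of soft connective tissue, showed the largest rise. It read 4.39, 4.29, 4.67 and 4.86 in sibcat and 8.30, 8.11, 7.98 and 8.25 in sibcat/siTAZ. The rise of 3.61 (SE 0.13, adjusted p = 2.1e-14 by limma) was 12.2-fold. The protease inhibitor-like protein PI15 rose by 3.19 from 4.80, 4.59, 4.45 and 4.62 to 7.69, 7.89, 7.76 and 7.87. SULT1E1, which inactivates oestrogens by sulphation, rose by 3.08 from 5.81, 5.73, 5.93 and 5.80 to 8.87, 8.92, 8.88 and 8.93. Both genes had groups apart by several log2 units. PTPRZ1, a receptor phosphatase, rose by 2.89 from 3.55, 4.10, 3.57 and 3.54 to 6.56, 6.68, 6.70 and 6.39, beside a control mean of 6.73. TNFAIP6, a hyaluronan-binding protein of inflammation, rose by 2.52 from 7.69, 7.52, 7.52 and 7.46 to 10.10, 10.04, 10.04 and 10.11.

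The other large rises were the collagenases MMP1 (2.58) and MMP13 (2.24), TMEM100 (2.48), ENPP2, which makes lysophosphatidic acid (2.32), the fatty acid carrier FABP4 (2.30), the thrombin receptor family member F2RL2 (2.29), the tryptophan-degrading enzyme TDO2 (2.02), the transcription factors EBF1 (1.98) and HEY1 (1.89), of which HEY1 is a Notch target, and the hyaluronan synthase HAS3 (1.89). MMP1 read 5.58, 5.51, 5.58 and 5.24 in sibcat and 8.01, 8.13, 8.02 and 8.09 in sibcat/siTAZ. F2RL2 read 6.76, 6.94, 6.83 and 6.74 against 9.12, 9.14, 9.03 and 9.13. Genes entered the 15 largest rises only if their groups did not overlap, so that separation is no result of its own. In 4 of the 15 largest rises the sibcat mean was below 5.

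**Figure D3:**
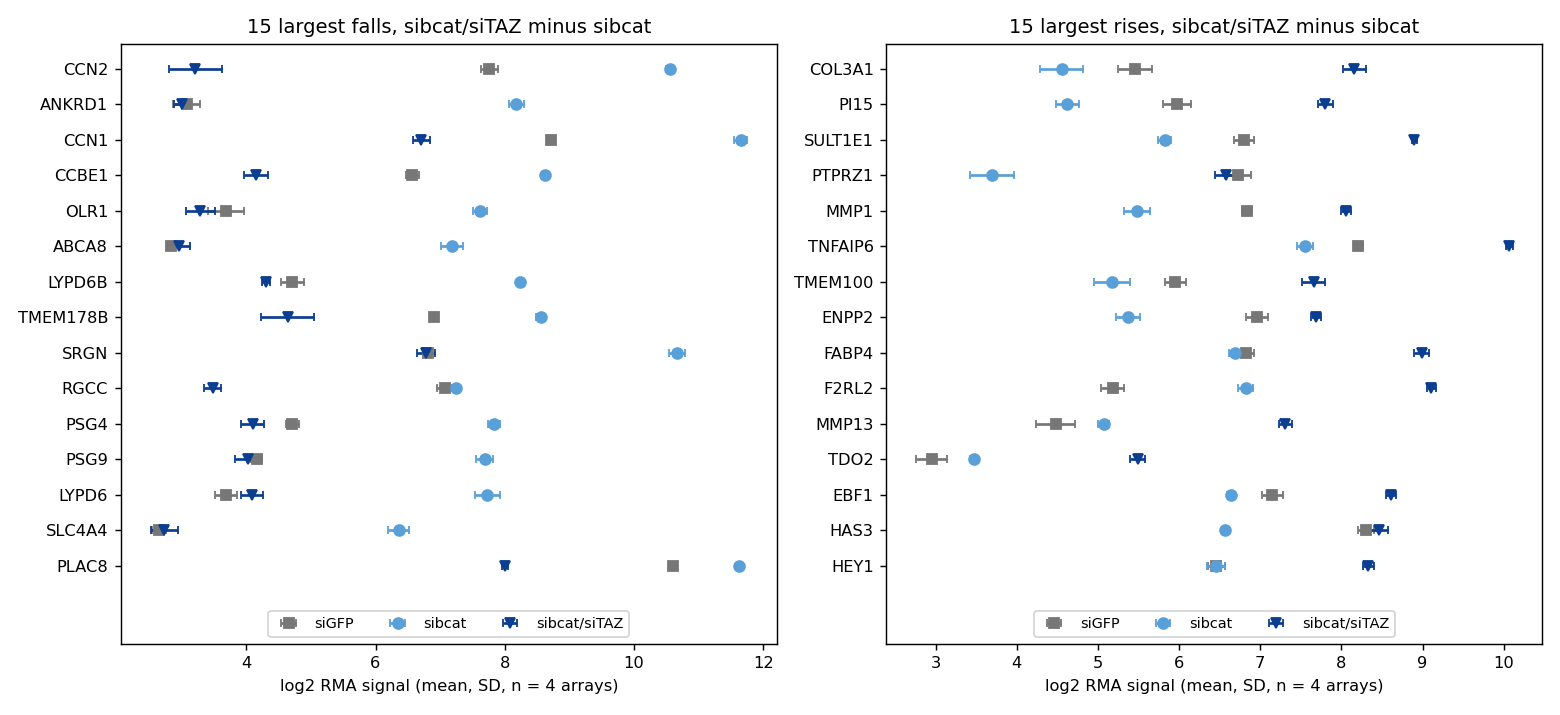
Mean log2 RMA signal with SD (horizontal axis, n = 4 arrays) of the 15 largest falls and the 15 largest rises in siGFP, sibcat and sibcat/siTAZ cells. Among these 3 groups many of the falling genes are highest in sibcat and end near or below the siGFP level, as CCN2 and SRGN do. COL3A1 ends above the siGFP level. The falls were picked by their drop from sibcat, which favours a high sibcat signal.

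The matrix genes moved in both directions. Of 27 collagens and matrix proteins, 15 rose, 7 fell and the median change was 0.33. COL1A1, the main chain of type I collagen, rose by 1.82 from 8.75, 8.81, 8.65 and 8.81 to 10.55, 10.62, 10.49 and 10.66. SPARC, a collagen-binding matricellular protein, rose by 1.72 from 7.96, 7.90, 7.81 and 8.06 to 9.69, 9.66, 9.59 and 9.67. POSTN, periostin, rose by 1.55 from 10.12 or less to between 11.60 and 11.66. Each of these 3 had groups that did not overlap. COL6A3 rose by 1.25, COL12A1 by 0.80, and FN1, fibronectin, by 0.33, although 1 of the probe sets of FN1 was called in the opposite direction. Against these, EDIL3, an integrin ligand, fell by 3.13 from 10.32, 10.31, 10.21 and 10.23 to 7.14, 7.16, 7.28 and 6.97, and COL8A1 fell by 1.43. MFAP5, a microfibril protein, fell by 1.64.

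Matrix proteases and their inhibitors rose in 14 of 19 and fell in 2, with a median of 0.37. Besides MMP1 and MMP13, ADAMTS5 rose by 0.94, MMP10 by 0.87 and TIMP1 by 0.77. The exceptions were ADAMTS1 (-3.57), an aggrecanase, and TIMP2 (-0.12), whose call was lost with only the groups compared (adjusted p = 0.104 by limma). Of 17 integrins and laminins, 7 rose (41.2%, beside 18% of all genes) and 3 fell (17.6%, near the 13.7% of all genes). ITGB2, the leukocyte integrin beta chain, fell from between 7.86 and 8.12 to 4.53, 4.32, 4.81 and 4.13, a change of -3.56, and ITGA1, a collagen receptor chain, rose by 0.84. Among mesenchymal genes 10 of 17 rose and 3 fell. SNAI2 (Slug) rose by 0.77, and TAGLN by 0.79, while VIM fell by 0.32 and ZEB1 by 0.31.

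Since several of these genes are also fibroblast markers, the fibroblast list was read in full. Of its 10 members 4 rose (COL3A1, COL1A1, POSTN and DCN, the last by 0.91) and none fell. The other 6 were not called by limma. PDGFRA stood between 3.64 and 4.04, COL1A2 between 4.30 and 4.48, LUM between 2.68 and 2.96, THY1 between 4.98 and 5.27 and PDGFRB between 5.72 and 6.08 over all 8 arrays, and FAP reached at most 9.39, with overlapping groups. The summed log2 level of the list was 66.32 to 67.01 in sibcat and 73.54 to 75.18 in sibcat/siTAZ. None of 10 endothelial markers was called (1 higher without sibcat/siTAZ B, and 1 lower with either other choice of probe sets). Over the 8 arrays 6 of these 10 had a mean signal below 5. Of 11 leukocyte markers, ITGB2 fell and CD14 rose by 0.56, with PTPRC (CD45) between 2.49 and 2.95.

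Interferon-response genes rose almost as a group. Of 28 measured, 25 rose, none fell and the median was 0.85, beside 18% of all genes called higher. All 25 had non-overlapping groups, as did 3054 of the 3555 genes called higher over the whole table. MX1, a GTPase that blocks viral replication, read 5.48, 5.71, 5.63 and 5.71 in sibcat and 7.22, 6.74, 7.14 and 7.18 in sibcat/siTAZ, a rise of 1.44 (SE 0.14, adjusted p = 6.7e-08). IFI44L rose by 1.40 from 9.42, 9.42, 9.31 and 9.26 to 10.75, 10.66, 10.76 and 10.85. BST2 (tetherin), which holds budding virions at the cell surface, rose by 1.34, and the RNA-binding IFIT1 by 1.18 from 9.63, 9.63, 9.72 and 9.54 to 10.79, 10.75, 10.76 and 10.92. In all of these the lowest sibcat/siTAZ array lay above the highest sibcat array.

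The rise covered effectors, sensors and regulators. OAS1, a sensor of double-stranded RNA, rose by 1.24, the mitochondrial protein IFI6 by 1.24, and ISG15, a ubiquitin-like modifier, by 1.03. RIGI, the receptor for viral RNA, rose by 0.94, IFIH1 (MDA5) by 0.82, IRF7 by 0.60 and IRF9, the DNA-binding part of the complex that answers type I interferon, by 0.55. The 3 members not called were IRF1 (0.10), OAS2 (0.15) and CMPK2 (-0.26). Without sibcat B or D or sibcat/siTAZ C, and with an intensity trend or a replicate block, 1 of the list was called lower. The sibcat arrays already lay above control for 24 of the 28 (21.4% of all genes) and below for 2. Cells with both siRNAs lay above control for 25 (25.4% of all genes) and below for 1, with a median of 1.46. These comparisons share arrays with the main one, so they are not separate evidence. MX1 stood at 4.85 in control, and IFI6 at 7.46, against 11.06 to 11.48 in sibcat/siTAZ.

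The genes of MHC class I presentation rose with them, 12 of 14 higher and none lower, at a median of 0.48. HLA-F rose by 0.82 from 9.83, 9.77, 9.83 and 9.96 to 10.65, 10.64, 10.63 and 10.76. PSMB9, a subunit of the immunoproteasome, rose by 0.81, HLA-B by 0.76 and B2M, the light chain of all class I molecules, by 0.29. The class I heavy chains are near-identical, so signal may be shared among them. NLRC5, the class I transactivator, rose by 0.70.

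NF-kB targets and cytokines were more often higher, 10 of 19, with 3 lower. The neutrophil chemokines rose most. CXCL1 went from 9.28, 9.19, 9.21 and 9.31 to 10.98, 10.91, 10.88 and 11.02, a 3.25-fold rise, and CXCL8 from 7.99, 7.97, 7.95 and 7.86 to 9.36, 9.37, 9.40 and 9.33, a 2.68-fold rise. CXCL2 rose by 1.38 and CXCL3 by 1.16. In both CXCL1 and CXCL8 the groups lay apart. The cytokine IL1A rose by 0.96, IL6 by 0.42 and the inhibitor NFKBIA by 0.65. In the other direction, CCL20, a chemokine for dendritic cells and lymphocytes, fell by 1.27, and LIF, a cytokine of the IL6 family, by 1.09.

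Most mitosis genes were higher, by small amounts. Of 30 mitosis genes 23 rose, 1 fell and the median was 0.25. CENPE, a kinetochore motor, rose by 0.66 (SE 0.04, adjusted p = 1.4e-10) from 9.11, 9.09, 9.06 and 8.99 to 9.75, 9.76, 9.67 and 9.69. NDC80, a kinetochore protein, rose by 0.50 from 9.27, 9.25, 9.23 and 9.12 to 9.75, 9.65, 9.74 and 9.72. The phosphatase CDC25C, which activates CDK1 at mitotic entry, rose by 0.51 and the cytokinesis kinesin KIF20A by 0.43. The groups did not overlap for any of these 4, nor for 19 of the 23 in all, beside 3054 of the 3555 genes called higher over the whole table. PRC1, which bundles the central spindle, was the member that fell (-0.15), and CDC20 (0.03), BUB1 (0.03) and NUF2 (-0.09) were not called. Of 27 S phase and replication genes, 9 rose (33.3%, beside 18% of all genes) and 3 fell (11.1%, near 13.7%), with a median of 0.09. POLE2, a DNA polymerase subunit, rose by 0.43 and MCM10 by 0.37, while GINS1 fell by 0.32.

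Inhibitors of cyclin-dependent kinases and cyclin D1 moved as well. CDKN1C (p57) fell by 2.78 from 7.88, 7.80, 7.87 and 7.89 to 4.63, 5.44, 4.95 and 5.30, and CDKN1A (p21) fell by 0.98 from 11.01, 11.12, 11.09 and 11.23 to 10.12, 10.09, 10.13 and 10.20. CDKN1B (p27) rose by 0.37 and CDKN2D by 0.47 (0.17 and not called with the mean of all probe sets). CCND1, cyclin D1, fell by 1.97 from 10.05, 10.24, 9.98 and 10.14 to 8.17, 8.14, 8.14 and 8.07. The 2 that fell and the 2 that rose, with CDKN2A and CDKN2B not called, make up the 6 measured inhibitors. Of 17 p53 targets 8 fell and 4 rose, with GADD45A down by 0.81 and FAS up by 0.42. Of 15 apoptosis regulators 6 rose and 4 fell. Among them BCL2L11 (BIM), which promotes apoptosis, rose by 0.91 from 8.85, 8.73, 8.87 and 8.88 to 9.77, 9.67, 9.67 and 9.84. BCL2L1 (BCL-XL), which opposes it, fell by 1.11 from 8.68, 8.72, 8.67 and 8.90 to 7.71, 7.60, 7.69 and 7.52.

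Hypoxia and glycolysis genes fell in 18 of 20, with 1 higher and a median of -0.54. ADM, the vasodilator adrenomedullin, read 10.42, 10.34, 10.45 and 10.38 in sibcat and 7.42, 7.41, 7.33 and 7.41 in sibcat/siTAZ, a fall of 3.00 (SE 0.04, adjusted p = 7.7e-21). EGLN3, a prolyl hydroxylase that marks HIF for degradation, fell by 2.40 from 7.97, 7.92, 7.89 and 7.97 to 5.61, 5.36, 5.55 and 5.61. The glycolytic enzyme ALDOC fell by 1.55 and NDRG1, a stress-responsive protein, by 1.54. The 4 sibcat/siTAZ arrays lay below the 4 sibcat arrays for each of these. BNIP3 fell by 0.96, VEGFA by 0.77 and the glucose transporter SLC2A1 by 0.63. Several glycolytic enzymes changed less, such as PGK1 (-0.30), GAPDH (-0.19) and ENO1 (-0.16). LDHA was not called (-0.04), and HK1, a hexokinase, rose by 0.11, a call lost without sibcat A, B or C or sibcat/siTAZ A or D. No member was called higher with the probe set of largest variance, only the groups compared or a replicate block either.

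Genes of amino acid and unfolded protein stress fell in 14 of 20 and rose in 2, with a median of -0.40. ASNS, asparagine synthetase, fell by 2.03 from 10.66, 10.50, 10.59 and 10.49 to 8.58, 8.55, 8.47 and 8.52, next to a control mean of 8.59. ATF4, the transcription factor that drives ASNS under amino acid shortage, fell by 0.71, and PHGDH, the first enzyme of serine synthesis, by 0.74. DDIT3 (CHOP) fell by 0.73, also without overlap, while the chaperone HSPA5 was not called (-0.01). Cholesterol biosynthesis genes fell in 11 of 13 and rose in none, at a median of -0.54. INSIG1, the sterol sensor partner, fell by 1.01 from 11.07, 11.12, 10.85 and 10.83 to 9.93, 9.95, 9.94 and 10.01, and the squalene epoxidase SQLE fell by 0.96 from 10.55, 10.49, 10.52 and 10.50 to 9.55, 9.54, 9.51 and 9.60. Oxidative phosphorylation genes gave 1 higher and 3 lower of 16 (1 lower without sibcat array D, with only the groups compared, and with either other choice of probe sets) with a median of 0.02, and none moved by more than 0.19.

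Several luminal keratins fell. Of 16 luminal markers 8 fell and none rose. KRT7 went from 12.15, 12.13, 12.22 and 12.58 to 10.62, 10.53, 10.57 and 10.64, a fall of 1.68, and KRT8 fell by 1.09 and its partner KRT18 by 0.82. CD24 fell by 1.05 from 13.03, 12.98, 13.01 and 13.06 to 11.99, 11.98, 11.91 and 11.98. ALDH1A3, an aldehyde dehydrogenase of luminal progenitors, fell by 1.02. These groups did not overlap. Basal and myoepithelial markers split, 3 higher and 4 lower of 10. KRT5 rose by 0.76, KRT14 was not called (-0.03), and OXTR, the oxytocin receptor, fell by 3.44 from 9.87, 9.74, 9.83 and 9.73 to 6.38, 6.22, 6.42 and 6.39. The smooth muscle kinase MYLK fell by 1.36. Of 20 squamous differentiation genes, 5 rose, including CSTA (0.93) and SPRR1B (0.83), and 6 fell, including KRT4 (-1.05) and TGM1 (-0.98). The 5 and the 6 are 25% and 30% of that list, beside 18% and 13.7% of all genes.

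Junction genes moved in both directions. Of 21 desmosome and tight junction genes 5 rose and 9 fell. PKP2, a desmosomal plaque protein, fell by 1.56 from between 8.75 and 9.04 to 7.38, 7.36, 7.40 and 7.27, and the tight junction protein OCLN by 1.13. The desmosomal cadherin DSC3 rose by 0.93 from 9.61, 9.65, 9.57 and 9.60 to 10.52, 10.50, 10.56 and 10.55, and CLDN8 rose 2.82-fold. Of 13 adherens junction genes 6 fell (3 in a fit of only the groups compared) and 3 rose, with PLEKHA7 down by 0.90 and CDH1, E-cadherin, by 0.37. Of 16 epithelial identity genes 8 fell, such as RAB25 (-0.77), and 4 rose, such as the transcription factor EHF (0.59). Actin and SRF targets fell in 10 of 23 and rose in 3, with LIMA1 down by 1.08 and TPM1 by 0.58.

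Immediate early genes fell in 11 of 18 and rose in 4. JUN, an AP-1 subunit, fell by 1.65 from 9.42, 9.49, 9.32 and 9.35 to 7.77, 7.87, 7.64 and 7.70, whereas FOS, its partner, rose by 1.21 from 5.31, 5.41, 5.29 and 5.55 to 6.55, 6.67, 6.60 and 6.58. FOSL2 fell by 0.77. Of 18 TGF-beta and SMAD targets 8 rose and 8 fell. The BMP-responsive ID3 rose by 1.67 from 8.70, 8.52, 8.63 and 8.77 to 10.41, 10.30, 10.27 and 10.32, ID2 by 1.11 and ID1 by 0.98. The ligands INHBA, an activin chain, and BMP4 fell by 2.17 and 2.64. Of 10 EGF family members 3 rose and 4 fell (2 with the probe set of largest variance), with the ligand NRG1 down by 1.00. Of 14 ERK feedback genes 3 rose (5 with the mean of all probe sets) and 2 fell. The 3 and the 2 are 21.4% and 14.3% of that list, near the 18% and 13.7% of all genes.

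**Figure D4:**
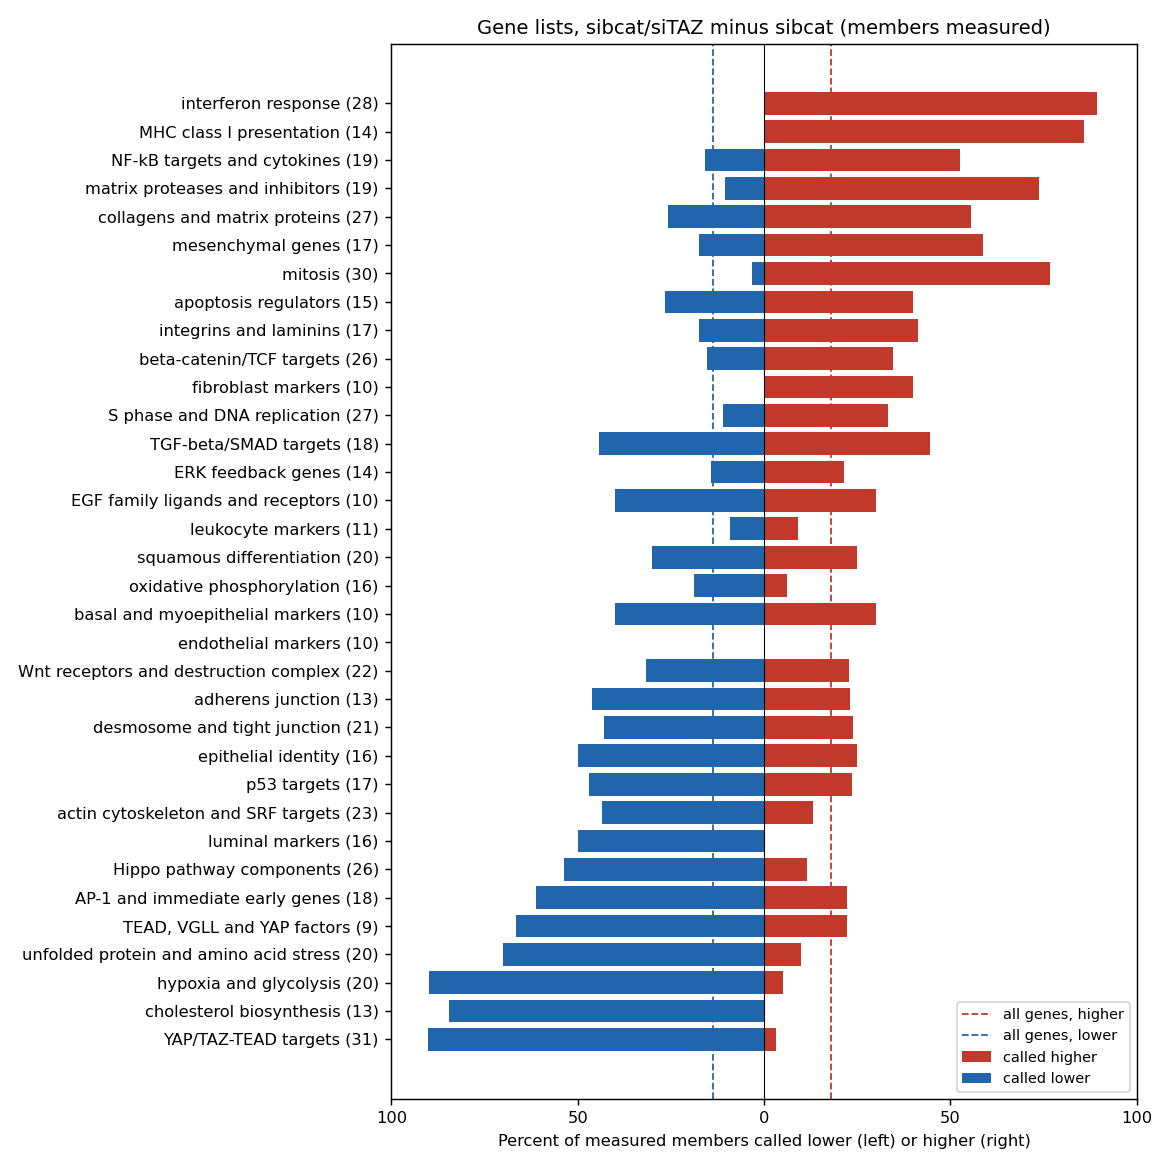
Percent of measured members called higher (right, red) or lower (left, blue) in sibcat/siTAZ against sibcat (horizontal axis) for each list with 9 or more measured genes, ordered by median change. Dashed lines give the percent of all genes tested, 18% higher and 13.7% lower. The interferon list lies at the top and the YAP/TAZ-TEAD targets at the bottom.

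Targets of beta-catenin with TCF moved in both directions. Of 26 measured, 9 rose (34.6%, beside 18% of all genes), 4 fell (15.4%, near 13.7%) and 13 were not called, with a median of 0.10. The count of rises was 6 with only the groups compared, the mean of all probe sets or sibcat/siTAZ D left out. With an intensity trend it was 11. AXIN2, a feedback inhibitor of Wnt signalling often used as a reporter, read 4.11, 4.36, 4.38 and 4.30 in sibcat and 4.55, 4.63, 4.84 and 4.46 in sibcat/siTAZ, near the low end of the scale. Its rise of 0.33 (adjusted p = 0.00205) became 0.11 with adjusted p = 0.181 when its probe sets were averaged. The large falls in the list were BMP4, DKK1 and CCND1, and the large rises ID2 and TNFRSF19 (0.85). LEF1 fell by 0.20. MYC rose by 0.11. Of 22 Wnt receptor and destruction complex genes 5 rose and 7 fell, between -0.88 for FZD2 and 0.68 for WLS, which escorts Wnt ligands to the surface.

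TAZ siRNA was also added to APC-depleted cells, which received no beta-catenin siRNA. That comparison reads the effect of added TAZ siRNA in another background, from 8 other arrays. There 8607 genes were called (43.5%), 4102 higher (20.7%) and 4505 lower (22.8%). Genes called the same way in both backgrounds numbered 4086, which is 65.2% of the calls in beta-catenin-depleted cells and 47.5% of those in APC-depleted cells, and 697 were called in opposite directions. The changes correlated across genes, which do not count as replicates, at r = 0.72 (rho = 0.49). Of the 296 genes that fell by 2-fold or more in beta-catenin-depleted cells, 285 also fell in APC-depleted cells and 5 rose. Of the 161 that rose that far, 145 rose and 5 fell. The difference between the backgrounds, tested as an interaction in the same fit, was called for 5480 genes (27.7%), 3073 with a higher value in beta-catenin-depleted cells (15.5%) and 2407 with a lower (12.2%).

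The TEAD targets fell in both backgrounds. The list had 28 of 31 lower with a median of -1.46 in each. Members still differed in size, since the difference was called higher for 9 of the 31 and lower for 9, beside 15.5% and 12.2% of all genes. CCN2 changed by -7.35 beside -6.76, and the difference of -0.59 missed the threshold (adjusted p = 0.079), with end levels of 3.21 and 4.27 near the bottom of the scale. CCN1 fell further in beta-catenin-depleted than in APC-depleted cells, with -4.94 beside -3.90 (difference -1.04, adjusted p = 2.2e-08). ANKRD1 changed by -5.16 beside -5.64. It ended at the bottom of the scale in both (3.01 and 3.09) after starting at 8.18 and 8.73, so the size of its effect cannot be compared between the backgrounds. TGFB2 changed by -2.88 beside -1.46, and GADD45B by -1.94 beside -3.32. DKK1 differed by 0.01 (SE 0.06). Among related sets, hypoxia genes were lower in 18 of 20 in both backgrounds, cholesterol genes in 11 of 13 in both, and MHC class I genes were higher in 12 and 14 of 14.

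Mitosis genes went opposite ways in the backgrounds. With beta-catenin depleted, 23 of 30 mitosis genes rose at a median of 0.25, and with APC depleted 29 fell and none rose, at a median of -0.64. The difference was called higher for 29 of 30 and lower for none. NDC80 changed by 0.50 beside -0.78 (difference 1.27, SE 0.06, adjusted p = 1.6e-11), and CENPE by 0.66 beside -0.51. NUF2 was not called in the one (-0.09) and fell by 1.81 in the other. Among 27 S phase genes 9 rose, 3 fell and 15 were not called with beta-catenin depleted, while 24 fell with APC depleted, at a median of -0.56, and the difference was called higher for 25. MCM6 changed by 0.01 beside -1.50.

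Interferon genes rose mainly in the beta-catenin background. The median was 0.85 there and 0.05 in APC-depleted cells, where 10 rose and 4 fell, and the difference was called higher for 25 of 28 and lower for 1. IFIT1 rose by 1.18 beside a fall of 0.59 (difference 1.76, adjusted p = 1.7e-11), and MX1 rose by 1.44 beside 0.25. Beta-catenin/TCF targets showed the reverse. In APC-depleted cells 18 of 26 rose and 2 fell at a median of 0.59, beside 0.10 here, and the difference was called lower for 17 and higher for none. For 9 of these 26 targets the mean over the sibcat and sibcat/siTAZ arrays was below 5, near the low end of the scale. AXIN2 rose by 0.33 beside 0.86, and LEF1 fell by 0.20 beside a rise of 1.23. For p53 targets the difference was called lower for 12 of 17 and higher for none.

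**Figure D5:**
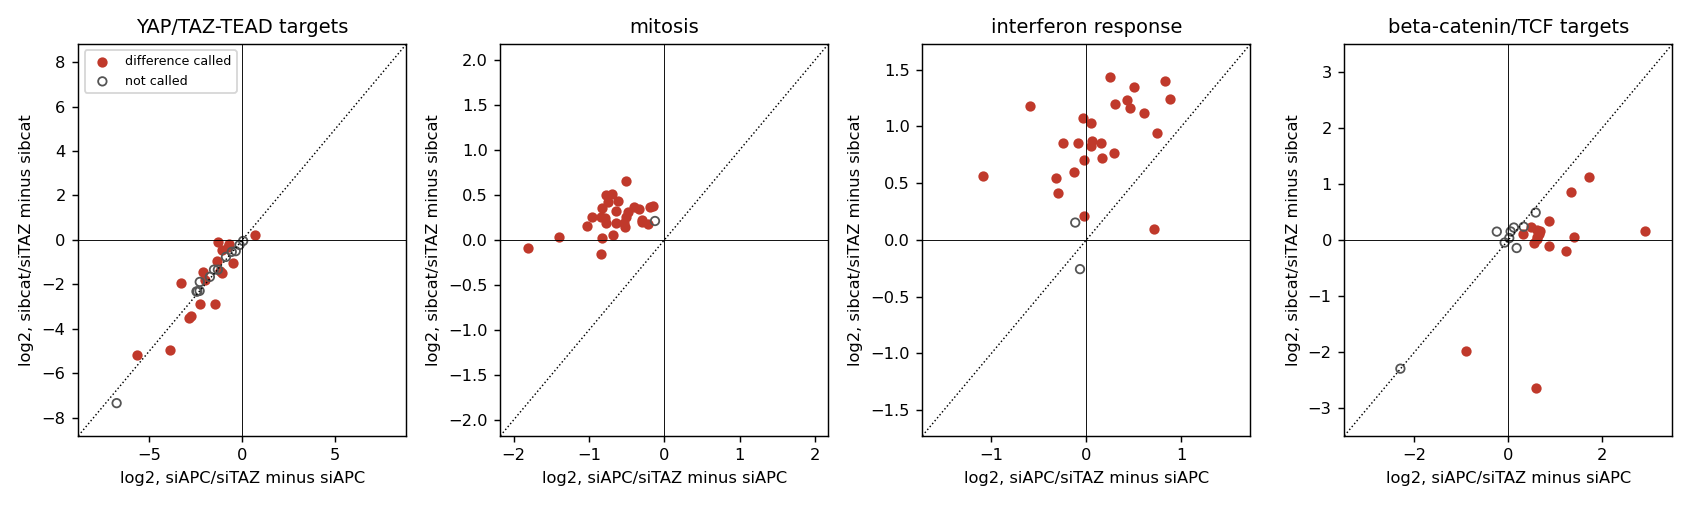
Log2 change with added TAZ siRNA in siAPC cells (horizontal axis) and in sibcat cells (vertical axis) for the genes of 4 lists. Filled points are genes whose difference between backgrounds was called, and the dotted line marks equal changes. TEAD targets scatter on both sides of the line, with the difference called higher for 9 of 31 and lower for 9. Mitosis genes lie above it, with higher values in sibcat cells and lower values in siAPC cells.

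Single genes differed more. BMP4, a BMP ligand, fell by 2.64 from 8.09, 7.91, 8.11 and 8.03 to 5.52, 5.44, 5.29 and 5.34 and rose by 0.59 in APC-depleted cells, a difference of -3.23 (SE 0.11, adjusted p = 9.6e-14). OLR1 changed by -4.33 beside -1.28. ZBED2, a zinc finger transcription factor, fell by 1.92 from 6.68, 6.68, 6.84 and 6.71 to 4.72, 4.66, 4.93 and 4.91 and rose by 0.21 with APC depleted. For 5 further genes the difference came mainly from a rise in APC-depleted cells. ARL14 changed by -0.32 beside 2.76, the cytokine IL33 by 0.11 beside 3.01, the Wnt modulator DKK2 by 0.16 beside 2.91, TCIM by 0.08 beside 2.49 and CCN4 (WISP1) by -0.18 beside 2.10. IL33, DKK2 and TCIM stood between 2.04 and 3.20 on all 8 arrays here, at the bottom of the scale.

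In the opposite direction, PRR16 fell by 1.33 from 8.93, 9.01, 8.79 and 9.04 to 7.56, 7.70, 7.48 and 7.70, beside a fall of 4.72 with APC depleted, a difference of 3.38 (SE 0.11, adjusted p = 9.6e-14). TIMP2, an inhibitor of metalloproteinases, moved by -0.12 beside -3.35, and the chromatin protein DEK by -0.23 beside -2.59. SDC2, a heparan sulphate proteoglycan, rose by 0.79 from between 7.96 and 8.12 to 8.86, 8.84, 8.83 and 8.76 beside a fall of 1.94. OIP5, which loads the centromeric histone, changed by 0.30 beside -1.89, and the co-chaperone SGTB by 0.07 beside -1.99. SRGN changed by -3.89 beside -6.59 and the oxidase AOX1 by -2.60 beside -4.66. In SRGN and AOX1 the direction was shared and the size differed.

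The levels reached with both siRNAs can also be read against control cells, in a comparison that shares the sibcat/siTAZ arrays with the main one. There 8887 genes were called (44.9%), 5023 higher (25.4%) and 3864 lower (19.5%). Sibcat alone against control gave 7344 (37.1%), 21.4% of all genes higher and 15.7% lower. Of the 31 TEAD targets, 26 were above control and 2 below with sibcat, and 5 were above and 21 below with sibcat/siTAZ. CCN2 differed from control by 2.80 with sibcat and by -4.55 with sibcat/siTAZ. ASNS differed by 1.98 and then by -0.06, and SRGN by 3.86 and then by -0.03. Hypoxia genes stood below control in 13 of 20 with sibcat and in 19 with sibcat/siTAZ. Mitosis genes were above control in 28 of 30 and then in 30. COL3A1, at a control mean of 5.45, changed by -0.89 with sibcat and by 2.71 with sibcat/siTAZ.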

How the data were processed

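The authors deposited 1 log2 signal per probe set and array. It was made with RMA according to the submitters' processing notes, which give no version, and the log2 scale was read from the range of the values. RMA corrects background, equalises the distributions of the arrays and summarises the probes of a set, so a signal near the bottom of the scale holds background and compresses folds. Of 54675 probe sets, 41097 carried 1 gene symbol in the platform annotation, 1801 several and 11777 none. After 62 control probe sets were left out, 41037 matched a current symbol. A gene was read from its probe set of highest mean over the 20 arrays. There was a choice to make for the 10523 of the 19775 genes with several probe sets.

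One group-means model over all 20 arrays was fitted with limma 3.58.1 (R 4.3.3), with 15 residual degrees of freedom, 3.39 prior degrees of freedom and a median residual SD of 0.108. No low signals were filtered. P-values were two-sided and adjusted by Benjamini-Hochberg over all genes, and genes were called at an adjusted p under 0.05. The number of arrays limits the precision.

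Named genes were the siRNA targets, the 15 largest rises and falls among called genes with non-overlapping groups, the 8 largest differences between backgrounds in each direction, up to 4 members of each of 36 lists by p (632 of 688 entries measured), and all TEAD targets and cofactors. Other list members were named after their values were seen. The members and lists were chosen with earlier results of these data known. Alternatives were another choice of probe set or their mean, a minimum mean signal, median centring, an intensity trend, only the groups compared, a replicate block and leaving out each array in turn.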

Additional observations from a re-analysis of the deposited data

Results flagged for a closer look

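In 23 of 390 groups of 4 arrays, taken over 195 named genes, 1 array stood apart from the other 3 by more than Dixon's critical ratio of 0.829, where chance alone flags about 1 in 20. In sibcat/siTAZ, array A was highest for CCN1 at 6.90, HAS3 at 8.62, HEY1 at 8.43, MYOF at 11.38, LOX at 10.40 and ERBB3 at 7.66, and lowest for FZD7 at 7.22. Array C was highest for TEAD4 at 7.29 and lowest for CD24 at 11.91 and ADM at 7.33, and array D was highest for ID2 at 9.27, FAS at 10.43 and HLA-F at 10.76. In sibcat, array A was highest for MMP13 at 5.17, and array B for PTPRZ1 at 4.10 and PLEKHA7 at 7.20. Array C was highest for CDC45 at 7.64 and PSMB9 at 8.89 and lowest for SPRR1B at 6.13. Array D was highest for TEAD2 at 7.13 and RAB25 at 8.04 and lowest for CDH1 at 11.02 and LIMA1 at 11.12. The gap to the nearest other array was 0.53 for PTPRZ1, 0.32 for RAB25, 0.26 for TEAD2 and 0.24 for CCN1, and smaller for the rest.

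The effect of TAZ siRNA differed between the beta-catenin-depleted and APC-depleted backgrounds for 141 of the 195 named genes by the interaction test in limma, beside 27.7% of all genes. These genes were named partly for large effects or large differences, so the 2 shares are not comparable. The differences, beta-catenin background minus APC background on the log2 scale, were lowest for BMP4 (-3.23), ARL14 (-3.08), OLR1 (-3.04), IL33 (-2.90), DKK2 (-2.75), TCIM (-2.41), CCN4 (-2.28) and ZBED2 (-2.13). They were highest for PRR16 (3.38), TIMP2 (3.23), SDC2 (2.73), SRGN (2.71), DEK (2.36), OIP5 (2.19), SGTB (2.06) and AOX1 (2.05).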

How the results depend on the processing

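Counts of called genes over the whole table moved by less than 1.5 times under every alternative run, apart from some counts at 2-fold or more. Counts within short lists moved further: falls went from 3 to 1 in oxidative phosphorylation, 6 to 3 in adherens junctions, 4 to 2 in the EGF family and 2 to 1 in matrix proteases under at least 1 alternative. SDHC lost its call in 11 alternatives besides its reversal. With the mean of all probe sets, 94 genes rose 2-fold or more (161 as reported), and the differences between backgrounds of that size fell to 100 higher and 103 lower (162 and 173), with a mean signal of at least 6 to 113 lower. The genes called in beta-catenin-depleted cells ranged from 5358 with only the groups compared to 6554 with an intensity trend, and from 5797 to 6021 when 1 array was left out, with 3255 to 3436 higher and 2499 to 2708 lower. Differences between backgrounds ranged from 5110 to 5582 with 1 array left out. With the probe set of largest variance, EGFR (0.14), NDUFV1 (0.0375) and SDHC (0.10) reversed direction and the cause was not tested, and LOX (-0.10, adjusted p = 0.222) and UQCRC2 (0.16, adjusted p = 0.318) lost their calls. TEAD2 lost its call with the mean of all probe sets (0.08, adjusted p = 0.247). CDKN2D also lost its call with that mean (0.17, adjusted p = 0.0911). TIMP2 lost its call with only the groups compared (adjusted p = 0.104), with arrays centred on their medians (adjusted p = 0.0506) and without sibcat C or D or sibcat/siTAZ C (adjusted p = 0.0501, 0.0889 and 0.0968). Little pairing by replicate letter was seen, with same-letter residual correlations from -0.088 to 0.156 (median 0.027) and 7 of 20 arrays best matched by their own letter. The labels do not say whether the letters pair the arrays, and weak correlations cannot exclude it. With a replicate block 6259 genes were called in place of 6264, and 5520 differences in place of 5480. Folds of genes near the bottom of the scale are limited by signal over background.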
